A study of Homo sapiens with 12 samples.

Results

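The 10 genes described here, AXIN2, LGR5, ASCL2, NKD1, RNF43, ZNRF3, NOTUM, TCF7, LEF1 and MYC, are WNT feedback and intestinal stem cell targets. They were chosen by name, as the rows of the gene count table that carry these symbols, and all 10 were found among its 28278 symbols. Of these, 8 were expressed highly enough to be tested, and NKD1 and LEF1 were not. Counts came from bulk poly(A) RNA-seq of 2 cancer cell lines, OVCAR3, which the study calls ovarian (high-grade serous), and CCL218, which it calls colorectal. For each line there were control cells at passage 19 and HCQ-evolved cells at passage 15. Hydroxychloroquine (HCQ) is an antimalarial that raises lysosomal pH and impairs autophagy. HCQ-evolved cells had received 15 pulses of HCQ, each lasting 48 h, and had then grown for 7 days without drug. Every group was 1 plate of small cultures, combined by position on the plate into 3 pools, labelled L, M and R. P-values therefore measure the spread between pools of a single plate, and treatment, plate and passage number cannot be told apart.

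WNT ligands bind Frizzled and LRP receptors, which stops the destruction complex of APC, AXIN1 and GSK3 from degrading beta-catenin. Beta-catenin then enters the nucleus and switches on targets through TCF and LEF factors. Many of these targets are themselves brakes on the pathway, so cells with active WNT signalling express AXIN2, RNF43, ZNRF3, NOTUM and NKD1. At the base of the intestinal crypt the same signal maintains stem cells, which are marked by LGR5 and ASCL2, and sustains MYC. Most colorectal cancers carry mutations that keep the pathway on, whereas high-grade serous ovarian cancers seldom do.

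Libraries held 31147822 to 59965861 counts, with 16569 to 18992 genes detected per library. Levels are given as CPM, that is, counts scaled to a common library total after TMM adjustment for composition. Across genes, the deviation of a library from the mean of its line was related to transcript length, with Spearman's rho from -0.495 to 0.555 over the 12 libraries. The control L pools of both lines stood at rho = -0.345 and -0.495 for length and at 0.401 and 0.385 for GC content, the highest of the 12 libraries for the latter, and the HCQ-evolved OVCAR3 R pool stood at the top for length. The libraries labelled OVCAR3 went against that label in most of their markers. The 11 intestinal epithelial markers summed to 979 to 1200 CPM in control OVCAR3 pools and 1250 to 1750 CPM in control CCL218 pools, whereas the 12 Müllerian markers summed to 45.5 to 72.3 and 66.4 to 129 CPM. Most of the intestinal sum was LGALS4 (643 to 859 CPM in control OVCAR3), with VIL1 at 197 to 290 and HNF4A at 67.8 to 90.4 CPM, whereas KRT20 was at 0, CDX1 below 1 CPM and CDH17, GPA33 and FABP1 at 1.29 to 3.77 CPM. Among Müllerian markers in control OVCAR3, MUC16 was at 13.0 to 30.5, MSLN at 10.7 to 18.3 and PAX8 at 9.29 to 14.9 CPM, and SOX17 and HOXD10 had no count in any library of either line. Line names below are therefore the labels only. Exons of other annotated genes overlap those of AXIN2 and RNF43 on the same strand and those of LGR5, NKD1, RNF43, NOTUM, TCF7, LEF1 and MYC on the opposite strand, and since the strand setting of the counting is not given in the sources used here, their reads cannot be told apart.

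NOTUM and ASCL2 fell in HCQ-evolved cells under both line labels, and LGR5 fell under the CCL218 label. AXIN2, the target most widely used as a readout of the pathway, was higher in every HCQ-evolved pool than in every control pool of its line, but it did not pass the test under either label in the unpaired fit. In CCL218 it passed as higher in a fit with plate position as a block (0.81, adjusted p = 0.0225, edgeR). The pools bore out that pairing only in part. RNF43, ZNRF3, TCF7 and MYC did not pass the unpaired test. In OVCAR3, 2 of the 8 tested genes passed (both lower), against a background of 1.86% of all genes tested that passed in either direction and 1.21% that passed lower. In CCL218, 3 of 8 passed in the unpaired fit (all lower), against 6.46% in either direction and 2.64% lower. NOTUM and ASCL2 were thus among the 37 of 11944 genes that were lower past the threshold under both labels, a background of 0.310%. The threshold was an adjusted p of 0.05 by edgeR's quasi-likelihood test with Benjamini-Hochberg adjustment over all genes tested.

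**Figure D1:**
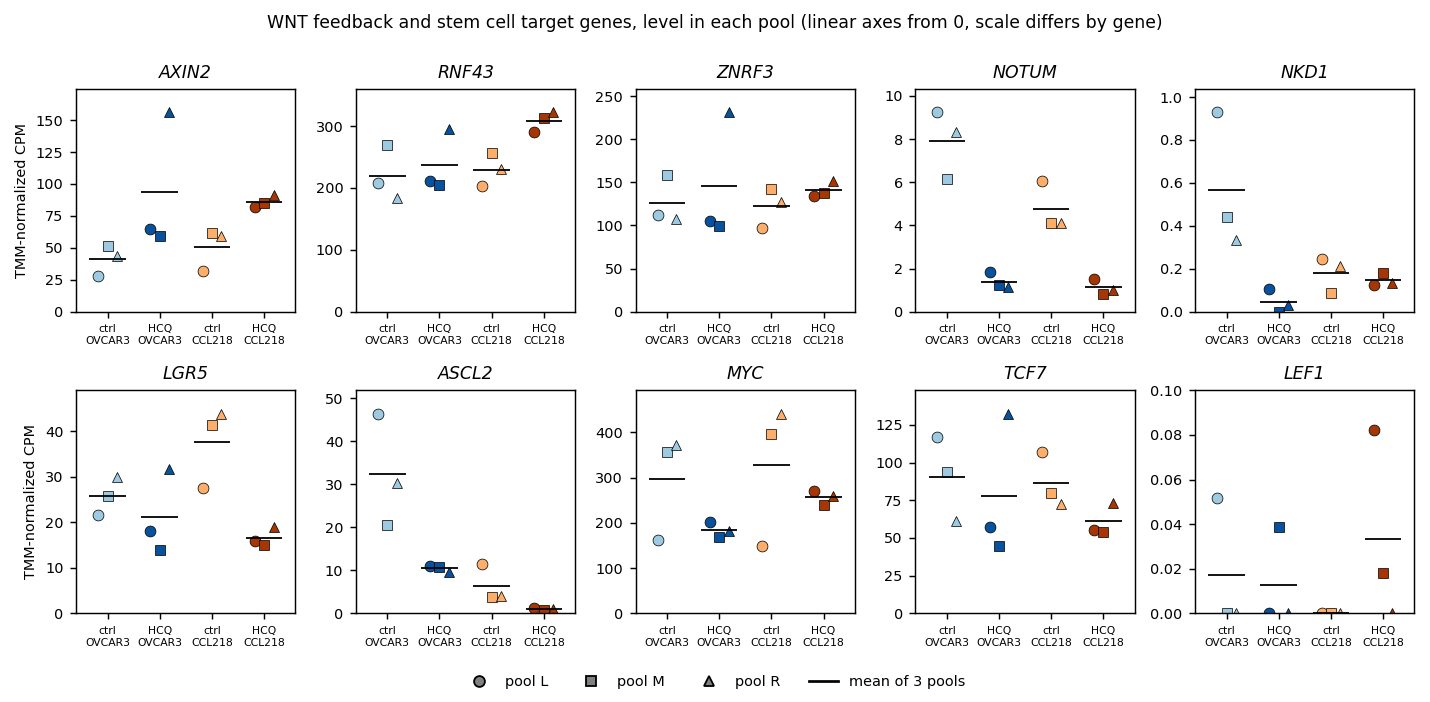
Level of each gene in TMM-normalized CPM (linear axes from 0, with a different scale for each gene) in control and HCQ-evolved pools of both lines. Points are single pools (circle L, square M, triangle R) and black lines are means of 3 pools; NOTUM and ASCL2 drop in HCQ-evolved pools of both lines, and the R pool of HCQ-evolved OVCAR3 stands apart for AXIN2, ZNRF3 and TCF7.

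NOTUM encodes a secreted carboxylesterase that removes the lipid from WNT ligands and so inactivates them outside the cell (chromosome 17, 81952507 to 81961840, minus strand, GENCODE 44 on hg38). In control OVCAR3 it was at 9.23, 6.15 and 8.34 CPM in the L, M and R pools (7.91 ± 1.58, mean ± SD, n = 3), and in HCQ-evolved OVCAR3 it was at 1.82, 1.22 and 1.15 CPM (1.4 ± 0.366). The lowest control pool was thus above the highest HCQ-evolved pool, as it was for 12.7% of all genes tested in OVCAR3. In control CCL218 it was at 6.07, 4.09 and 4.1 CPM (4.75 ± 1.14), and in HCQ-evolved CCL218 at 1.52, 0.838 and 1.02 CPM (1.13 ± 0.353). Again the groups did not overlap, which held with HCQ-evolved pools lower for 17.3% of all genes tested in CCL218. The log2 fold change of NOTUM was -2.48 in OVCAR3 (standard error 0.29, adjusted p = 0.0128, edgeR), a level 5.58-fold lower. In CCL218 it was -2.08 (standard error 0.30, adjusted p = 0.011, edgeR), 4.24-fold lower. These were the 67th lowest of 12204 fold changes in OVCAR3 and the 36th lowest of 12241 in CCL218. The HCQ-evolved pools held 46 to 104 counts of NOTUM and the control pools 188 to 451 in the 2 lines together. Leaving out a single pool kept the direction, but the call was lost without control L, control R or HCQ-evolved M in OVCAR3 (adjusted p = 0.127, 0.104 and 0.0578) and without HCQ-evolved M or R in CCL218 (adjusted p = 0.0735 and 0.0798, edgeR).

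ASCL2, a basic helix-loop-helix transcription factor that controls stem cell identity at the crypt base, is encoded on chromosome 11 (2268498 to 2270588, minus strand). Control OVCAR3 pools were at 46.3, 20.5 and 30.2 CPM (32.3 ± 13.0, n = 3) and HCQ-evolved OVCAR3 pools at 11.1, 10.7 and 9.54 CPM (10.5 ± 0.818). HCQ-evolved pools were tightly grouped and all lay below the controls, which spread widely. Control CCL218 pools were at 11.6, 3.79 and 4.01 CPM (6.47 ± 4.45) and HCQ-evolved CCL218 pools at 1.23, 0.911 and 1.05 CPM (1.07 ± 0.161). Here too every HCQ-evolved pool lay below every control pool, and in both lines the L pool was the highest control. The log2 fold change of ASCL2 was -1.60 in OVCAR3 (standard error 0.29, adjusted p = 0.0456, edgeR), 3.04-fold lower. In CCL218 it was -2.60 (standard error 0.48, adjusted p = 0.0263, edgeR), 6.08-fold lower and the 19th lowest fold change of 12241. Without the control L pool the value moved to -1.28 in OVCAR3 (adjusted p = 0.168) and to -1.88 in CCL218 (adjusted p = 0.000231, edgeR), and removing the dependence on length and GC content gave -1.22 and -2.18. In OVCAR3 the call was also lost without control M or R or HCQ-evolved L or M (adjusted p = 0.0557, 0.182, 0.113 and 0.136), and in CCL218 without control R or any 1 HCQ-evolved pool (0.0558, 0.118, 0.16 and 0.128, edgeR).

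In HCQ-evolved CCL218 pools, NOTUM and ASCL2 were near the level that a gene needed to be tested (1 CPM in at least 3 libraries), at 0.838 to 1.52 CPM. ASCL2 had 50 to 63 counts in each HCQ-evolved CCL218 pool and 174 to 472 in each control pool. Both genes have short, GC-rich transcripts, of 1485 bases for ASCL2 and 2223 for NOTUM, and the L control pools, which favoured such transcripts, held their highest levels in both lines.

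LGR5, a receptor for R-spondins that marks crypt base stem cells, raises WNT signalling by clearing RNF43 and ZNRF3 from the cell surface (chromosome 12, 71439798 to 71586310, plus strand). In CCL218 the control pools were at 27.6, 41.3 and 43.7 CPM (37.5 ± 8.65, n = 3) and the HCQ-evolved pools at 15.9, 15.0 and 18.9 CPM (16.6 ± 2.02). HCQ-evolved pools were all below the controls. In OVCAR3 the control pools were at 21.6, 25.8 and 30.0 CPM (25.8 ± 4.2) and the HCQ-evolved pools at 18.1, 13.9 and 31.7 CPM (21.3 ± 9.31). There the groups overlapped, since the HCQ-evolved R pool was the highest of all 6. The log2 fold change of LGR5 was -1.18 in CCL218 (standard error 0.20, adjusted p = 0.021, edgeR), 2.27-fold lower, and -0.26 in OVCAR3 (standard error 0.33, adjusted p = 0.75). Without the R pool the OVCAR3 value was -0.69 (adjusted p = 0.138, edgeR). In CCL218 the call was lost when control M, control R or any 1 HCQ-evolved pool was left out (adjusted p from 0.052 to 0.151), with fold changes from -1.37 to -1.06 over all pools left out.

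AXIN2 is a scaffold of the destruction complex and a negative feedback target of beta-catenin (chromosome 17, 65528563 to 65561648, minus strand). Control OVCAR3 pools were at 27.8, 51.2 and 43.9 CPM (41.0 ± 12, n = 3), and HCQ-evolved OVCAR3 pools at 64.7, 59.6 and 156 CPM (93.4 ± 54.1). Control CCL218 pools were at 31.9, 61.8 and 59.1 CPM (50.9 ± 16.6), and HCQ-evolved CCL218 pools at 81.9, 85.2 and 91.4 CPM (86.2 ± 4.84). The groups did not overlap in either line, as was also so, with HCQ-evolved pools higher, for 13.0% of all genes tested in OVCAR3 and 18.6% in CCL218. AXIN2 had a log2 fold change of 1.21 in OVCAR3 (standard error 0.43, adjusted p = 0.219, edgeR) and 0.76 in CCL218 (standard error 0.25, adjusted p = 0.117, edgeR). In OVCAR3 the R pool decided the size, since without it the value was 0.60 (adjusted p = 0.254). In CCL218 a fit with plate position as a block gave 0.81 (adjusted p = 0.0225, edgeR), past the threshold. Position was not a clear pairing there. Over all genes, the control M pool correlated more with the HCQ-evolved R pool (0.433) than with the HCQ-evolved M pool (0.233). AXIN2 in CCL218 also passed with DESeq2 (adjusted p = 0.0357), with the length and GC trend removed (0.72, adjusted p = 0.0295) and without the control L pool (0.50, adjusted p = 0.00386, edgeR). In both lines AXIN2 was lowest, and NOTUM highest, in the control L pool.

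RNF43 and ZNRF3 are sister transmembrane E3 ubiquitin ligases that remove Frizzled receptors from the cell surface. RNF43 is on chromosome 17 (58353676 to 58417595, minus strand). It was at 203, 256 and 230 CPM in control CCL218 (229 ± 26.2, n = 3) and at 290, 313 and 322 CPM in HCQ-evolved CCL218 (309 ± 16.4). These groups did not overlap. In OVCAR3 it was at 208, 269 and 183 CPM in control pools (220 ± 44.5) and 212, 205 and 296 CPM in HCQ-evolved pools (238 ± 50.6), which overlapped. RNF43 had a log2 fold change of 0.42 in CCL218 (standard error 0.13, adjusted p = 0.099, edgeR) and 0.13 in OVCAR3 (standard error 0.23, adjusted p = 0.832). The CCL218 value passed with DESeq2 (adjusted p = 0.0232), with the length and GC trend removed (0.36, adjusted p = 0.0174, edgeR) and without control L (0.34, adjusted p = 0.0243, edgeR). ZNRF3 lies on chromosome 22, from 28883572 to 29057488 on the plus strand. Its pools were at 112, 158 and 108 CPM in control OVCAR3 (126 ± 28.0) and 105, 99.9 and 231 CPM in HCQ-evolved OVCAR3 (145 ± 74.1). In CCL218 it was at 97.4, 142 and 127 CPM (122 ± 22.6) and 134, 138 and 152 CPM (141 ± 9.82). Groups overlapped in both lines, with a log2 fold change of 0.23 in OVCAR3 (adjusted p = 0.807) and 0.21 in CCL218 (adjusted p = 0.448, edgeR). As with AXIN2, the HCQ-evolved OVCAR3 R pool held the highest value, and without it RNF43 and ZNRF3 were at -0.07 and -0.29.

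NKD1 binds Dishevelled and restrains WNT signalling (chromosome 16, 50548396 to 50649249, plus strand). It was barely detected. Control OVCAR3 pools held 36, 14 and 18 counts of NKD1 and HCQ-evolved OVCAR3 pools 6, 0 and 2 counts. HCQ-evolved pools were thus below the controls, at 0.0461 ± 0.0535 CPM against 0.567 ± 0.317 CPM. In CCL218 the control pools held 10, 4 and 10 counts and the HCQ-evolved pools 6, 10 and 8, which overlapped. Because NKD1 did not reach 1 CPM in any pool it was not tested, and in a fit with no filter on low counts its log2 fold change in OVCAR3 was -3.45 (standard error 0.85, adjusted p = 0.0386, edgeR), a value that depends on few counts and gives no bound.

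**Figure D2:**
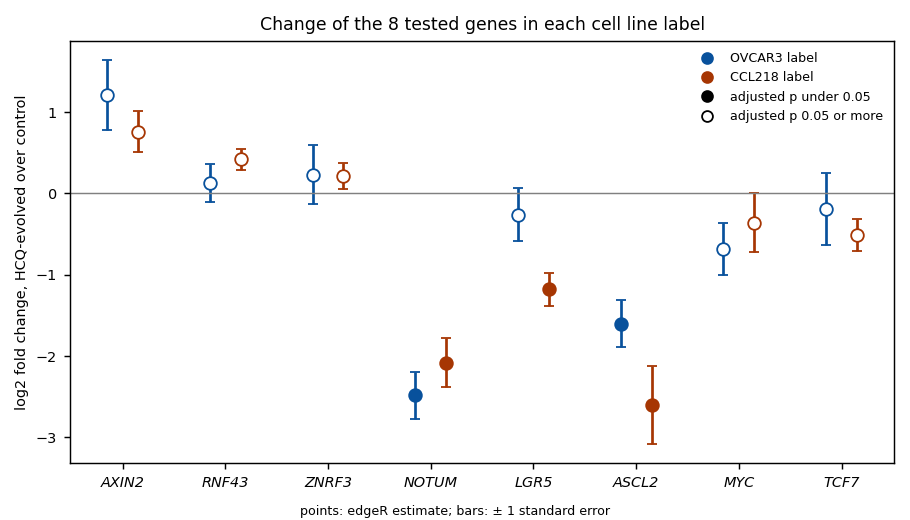
Log2 fold change of HCQ-evolved over control pools for the 8 tested genes (vertical axis) in OVCAR3 (blue) and CCL218 (brown). Points are edgeR estimates, bars are ± 1 standard error and filled points passed the adjusted threshold; only NOTUM and ASCL2 in both lines and LGR5 in CCL218 are filled.

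MYC, a transcription factor of growth and ribosome production, is a classical target of beta-catenin in colorectal cells (chromosome 8, 127735434 to 127742951, plus strand). Control OVCAR3 pools were at 163, 357 and 373 CPM (298 ± 117, n = 3) and HCQ-evolved OVCAR3 pools at 203, 168 and 182 CPM (184 ± 17.7). Control CCL218 pools were at 149, 397 and 440 CPM (329 ± 157) and HCQ-evolved CCL218 pools at 270, 240 and 260 CPM (257 ± 15.4). The L pool was by far the lowest control in both lines, and through it the groups overlapped. MYC had a log2 fold change of -0.68 in OVCAR3 (standard error 0.32, adjusted p = 0.356, edgeR) and -0.36 in CCL218 (standard error 0.36, adjusted p = 0.559, edgeR). Without the control L pool the values were -0.99 (adjusted p = 0.15) and -0.71 (adjusted p = 0.000523, edgeR), so that MYC passed in CCL218 only when that pool was left out.

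TCF7 and LEF1 encode factors that bring beta-catenin to DNA, and TCF7 is also a target of the pathway. TCF7 lies on chromosome 5, from 134114681 to 134151865 on the plus strand. Its level was 117, 93.7 and 61.4 CPM in control OVCAR3 (90.6 ± 27.8, n = 3) and 57.0, 44.5 and 132 CPM in HCQ-evolved OVCAR3 (77.8 ± 47.3). In CCL218 it was at 107, 79.7 and 72.8 CPM (86.4 ± 17.9) and 55.4, 54.2 and 73.2 CPM (60.9 ± 10.7). The groups overlapped in both lines, in CCL218 only through the R pools. TCF7 had a log2 fold change of -0.19 in OVCAR3 (standard error 0.44, adjusted p = 0.877, edgeR) and -0.51 in CCL218 (standard error 0.20, adjusted p = 0.166, edgeR). LEF1 (chromosome 4, 108047545 to 108168956, minus strand) had 0 to 4 counts in every pool of every group, so of the pair TCF7 was the one expressed.

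Both TCF7 and LEF1 are known to have internal start sites from which shorter proteins without the beta-catenin binding end are made, and counts per gene do not tell these from the full-length forms. RefSeq start sites were at hand for 3 of the 10 genes (LEF1, RNF43 and TCF7), with 5 starts in all, and the 250 bases before each were searched on both strands for the letters that TCF and LEF factors bind, CTTTG followed by AA, by AT, by TA or by TT. A match was found in 1 of the 5 windows, before an internal start of TCF7, and 12% of all 35116 RefSeq windows of that length held one. It is shown because it lies in the target gene that itself encodes such a factor. The window is chr5:134123368-134123617 (GRCh38.p14, plus strand), inside TCF7 and outside every exon of GENCODE 44. Capitals mark the match, CTTTGTT read on the opposite strand, which begins 50 bases before the start.
TCF7 internal start: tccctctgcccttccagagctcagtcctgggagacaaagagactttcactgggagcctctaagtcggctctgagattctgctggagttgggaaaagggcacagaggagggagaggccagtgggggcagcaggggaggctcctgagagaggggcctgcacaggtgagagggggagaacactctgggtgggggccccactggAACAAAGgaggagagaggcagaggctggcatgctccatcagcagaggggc
A match is a description of the letters only, and TCF7 itself did not pass the test under either label.

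Levels of different genes were set side by side per kilobase of transcript (mean CPM per kb of 3 pools). MYC and RNF43 were the highest in all 4 groups, at 80.0 and 48.7 CPM per kb in control OVCAR3, 49.5 and 52.6 in HCQ-evolved OVCAR3, 88.3 and 50.7 in control CCL218, and 69.1 and 68.2 in HCQ-evolved CCL218. Pools of MYC and RNF43 overlapped in each group. NOTUM, NKD1 and LEF1 were the lowest 3 throughout. The place of ASCL2 moved most. Its rank was 4 in control OVCAR3, at 21.8 ± 8.78 CPM per kb, where its pools overlapped with those of ZNRF3 (18.4 ± 4.07), and 7 in HCQ-evolved CCL218, at 0.717 ± 0.108 CPM per kb, where they overlapped with those of NOTUM (0.506 ± 0.159). AXIN2 stood at 9.62 ± 2.82 CPM per kb in control OVCAR3 and 12 ± 3.89 in control CCL218, and at 21.9 ± 12.7 and 20.2 ± 1.14 in the HCQ-evolved groups. Its pools overlapped with those of ZNRF3 in every group but control OVCAR3, where they lay below.

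To ask whether the genes responded differently under the labels, the difference between their fold changes was tested in a fit of all 12 libraries. None of the 8 genes passed by edgeR, DESeq2 or limma voom, and 1 had an unadjusted p under 0.05, against a background of 0.872% of all genes tested past the adjusted threshold and 9.11% at an unadjusted p under 0.05. That gene was LGR5, whose change was lower by 0.90 on the log2 scale in CCL218 than in OVCAR3 (standard error 0.40, unadjusted p = 0.0474, adjusted p = 0.536, edgeR). For ASCL2 the difference was -0.97 (standard error 0.59, adjusted p = 0.78) and for NOTUM 0.42 (standard error 0.41, adjusted p = 0.985). A p above the threshold does not show that the lines responded alike. The sign of the fold change was the same in both lines for all 8 tested genes, as it was for 73.1% of the 11944 genes tested in both, but leaving out 1 pool turned RNF43, ZNRF3 or TCF7 in OVCAR3.

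**Figure D3:**
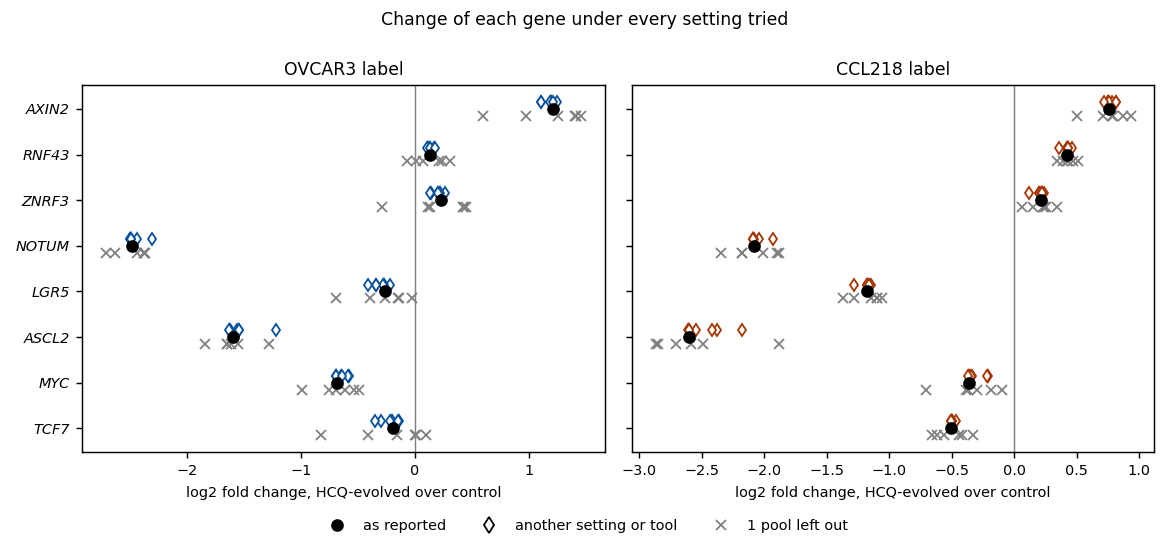
Log2 fold change of HCQ-evolved over control pools (horizontal axis) of the 8 tested genes under each setting, in OVCAR3 and CCL218. Black points are the values as reported, diamonds other settings or tools and crosses fits with 1 pool left out; AXIN2 stays above 0 and NOTUM, ASCL2, LGR5 and MYC stay below 0 in every fit shown for both lines, while RNF43, ZNRF3 and TCF7 cross 0 in OVCAR3.

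Control cells of the labels were also compared with each other. ASCL2 was 5.01-fold lower in control CCL218 than in control OVCAR3 (log2 difference -2.32, standard error 0.42, adjusted p = 0.0112, edgeR), and its pools did not overlap. It was the only 1 of the 8 genes to pass, against a background of 3.42% in either direction and 2.07% lower. It passed at -2.70 without both control L pools, but not in a fit of the control libraries alone (adjusted p = 0.0802) nor without the control M or R pool of CCL218 (adjusted p = 0.0553 and 0.0609, edgeR). NOTUM had a log2 difference of -0.74 (standard error 0.28, adjusted p = 0.24), also with pools apart, as they were, with control CCL218 lower, for 9.13% of all genes tested. The other 6 genes differed by -0.07 to 0.54, with adjusted p from 0.416 to 0.938.

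The rest of the pathway was described by gene lists, read beside the median log2 fold change of all genes tested (0.02 in OVCAR3 and -0.02 in CCL218). Of all genes tested, 16.2% in OVCAR3 and 25.2% in CCL218 had an unadjusted p under 0.05 by edgeR, and DESeq2 called 9.06% and 17.7%, against the 1.86% and 6.46% that edgeR called, so counts of listed genes under either of these looser rules are to be read against those shares. Pools apart are common as well. In OVCAR3, HCQ-evolved pools were all higher for 13.0% of all genes tested and all lower for 12.7%. In CCL218 these shares were 18.6% and 17.3%, so pools apart in a listed gene is a description only. Among secreted antagonists, DKK1, which blocks the LRP coreceptors and is itself a WNT target, fell under both labels. It was at 10.5 to 14.0 CPM in control OVCAR3 pools and 2.68 to 4.21 CPM in HCQ-evolved ones (log2 fold change -1.65, standard error 0.26, adjusted p = 0.0289, edgeR). In CCL218 it was at 13.7 to 17.8 CPM in control pools and 3.52 to 4.06 CPM in HCQ-evolved ones (-1.99, standard error 0.16, adjusted p = 0.00164, edgeR). SOSTDC1, another secreted antagonist, rose in OVCAR3 (1.45, adjusted p = 0.0241) and was at -0.03 in CCL218 (adjusted p = 0.948). No other of the 6 tested antagonists (of 16 listed) passed by edgeR, and the medians were 0.19 and 0.07. In CCL218, DESeq2 also called KREMEN2 lower (-1.06, adjusted p = 0.099, edgeR) and KREMEN1 higher (0.48, adjusted p = 0.0921, edgeR), both with pools apart.

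Among ligands and the proteins that prepare them, 7 of 21 were tested. None passed in OVCAR3 by edgeR, with 1 at an unadjusted p under 0.05 and 1 past the threshold by DESeq2, which was PORCN (-0.88, adjusted p = 0.085, edgeR), the enzyme that puts the lipid on WNT ligands. PORCN was at -0.52 in CCL218 (adjusted p = 0.12, edgeR), with pools apart in both lines, and DESeq2 called it lower there too. In CCL218, WLS, the carrier of ligands to the cell surface, rose by 0.64 (adjusted p = 0.0246) and WNT7B by 0.55 (adjusted p = 0.0367, edgeR). Among receptors and R-spondins, 13 of 21 were tested. In CCL218, FZD7 rose from 14.7 to 26.6 CPM in control pools to 48.7 to 51.2 CPM (1.18, adjusted p = 0.0286), and FZD2 fell (-1.25, adjusted p = 0.0219, edgeR). In OVCAR3 none passed by edgeR, with 3 at an unadjusted p under 0.05, and FZD7, at 0.91 (adjusted p = 0.102, edgeR), passed by DESeq2. In CCL218, DESeq2 also called FZD5 and LRP5 higher.

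Of the core of the pathway, none of the 15 tested components of the destruction complex and Dishevelled (of 16) passed by edgeR or DESeq2 under either label, with 0 and 1 at an unadjusted p under 0.05 in OVCAR3 and CCL218, and medians were 0.07 and 0.01. With 15 genes and the shares called among all genes, a count of 0 by edgeR is near the background. DVL3, the one with the smallest p in both, was at -0.46 (adjusted p = 0.384) and -0.44 (adjusted p = 0.195, edgeR). Of 19 tested beta-catenin partners (of 20), none passed in OVCAR3 by edgeR or DESeq2, with 0 at an unadjusted p under 0.05. In CCL218, TLE2, a corepressor of TCF factors, was the only one to pass by edgeR (1.05, adjusted p = 0.00992, higher), and DESeq2 also called SMARCA4 lower. CTNNB1, which encodes beta-catenin, was at 0.53 in OVCAR3 (adjusted p = 0.342) and 0.44 in CCL218 (adjusted p = 0.327, edgeR), with pools apart in both.

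**Figure D4:**
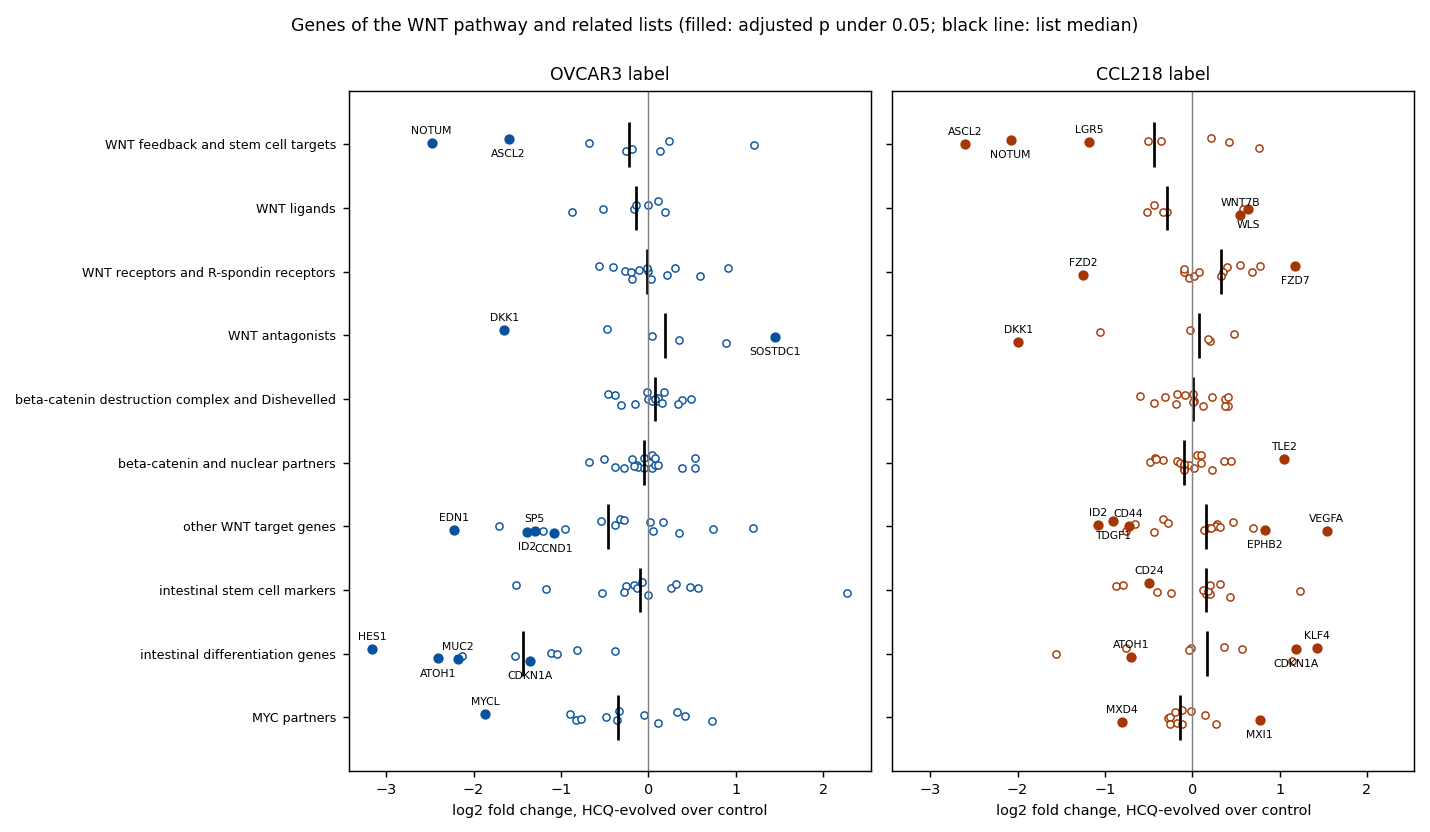
Log2 fold change of HCQ-evolved over control pools (horizontal axis) of every tested gene of 10 lists (rows) in OVCAR3 and CCL218. Each point is a gene, filled and named where it passed the adjusted threshold, and the black line is the list's median; the destruction complex has no filled point, and intestinal differentiation genes lie to the left of 0 in OVCAR3 but on both sides in CCL218.

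Other WNT targets did not move one way. In OVCAR3, 4 of 18 tested (of 21) fell, namely EDN1 (-2.22, adjusted p = 0.00706), ID2 (-1.39, adjusted p = 0.0338), SP5 (-1.30, adjusted p = 0.0218) and CCND1 (-1.08, adjusted p = 0.038, edgeR), and none passed higher by edgeR. DESeq2 called 7 lower, with CEMIP, EPHB2 and EPHB3 in addition, and 2 higher, MMP7 (1.20, adjusted p = 0.114, edgeR) and VEGFA (0.74, adjusted p = 0.116, edgeR), both with pools apart. SP5 is a transcription factor that is itself a direct WNT target, and CCND1 encodes cyclin D1. The median of the list was -0.46 there. In CCL218, ID2 (-1.08, adjusted p = 0.0319), CD44 (-0.73, adjusted p = 0.0299) and TDGF1 (-0.91, adjusted p = 0.0475) fell. VEGFA (1.54, adjusted p = 0.00199) and EPHB2 (0.83, adjusted p = 0.0229, edgeR) rose, and the median was 0.15. SP5 in CCL218 was at -0.76 (adjusted p = 0.113), with pools apart. ID2 was the one gene of this list that passed lower in both lines by edgeR, and DESeq2 called ID2 and SP5 lower in both. In CCL218, DESeq2 called 5 lower and 4 higher, with SOX9, ETS2 and PLAUR besides those named.

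Further intestinal stem cell markers were measured as well. Of 14 tested in OVCAR3 none passed by edgeR, with 3 at an unadjusted p under 0.05 and 2 past the threshold by DESeq2 (IFITM1 higher and PROM1 lower). Of 13 tested in CCL218, CD24 passed (-0.49, adjusted p = 0.049, edgeR), and medians were -0.10 and 0.16. CD24 was at -1.17 in OVCAR3 (adjusted p = 0.294, edgeR), with pools apart. PROM1, which encodes the surface protein CD133, was lower in every HCQ-evolved pool than in every control pool of both lines, at -1.51 in OVCAR3 (adjusted p = 0.176) and -0.87 in CCL218 (adjusted p = 0.102, edgeR), and DESeq2 called it lower in both. OLFM4, a marker of human crypt base cells, had almost no counts, at no more than 0.0427 CPM in any pool. Of the intestinal differentiation genes, all 10 tested (of 18) had fold changes below 0 in OVCAR3, with a median of -1.44. Over all genes tested there, 5905 of 12204 fold changes were below 0. Of the 10 differentiation genes, 4 passed. These were the Notch target HES1 (-3.16, adjusted p = 0.0146), ATOH1 of the secretory lineage (-2.41, adjusted p = 0.0479), the goblet cell mucin MUC2 (-2.18, adjusted p = 0.0276) and CDKN1A, which encodes the cell cycle inhibitor p21 (-1.35, adjusted p = 0.0218, edgeR). In CCL218, KLF4 (1.43, adjusted p = 0.00253) and CDKN1A (1.19, adjusted p = 0.00603) rose and ATOH1 fell (-0.70, adjusted p = 0.0374, edgeR), with a median of 0.17. DESeq2 called 7 lower in OVCAR3, and 4 higher and 2 lower in CCL218, where MUC2 was at -1.56 (adjusted p = 0.0531, edgeR) with pools apart and was 1 of the 2.

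Partners of MYC were measured beside it. In OVCAR3, MYCL, a paralog of MYC, fell (-1.87, adjusted p = 0.0309, edgeR), and no other of 12 tested (of 13) passed by edgeR. DESeq2 called 4 lower there, MYCL, MXD4, MXD1 (-0.90, adjusted p = 0.155, edgeR) and MLXIP (-0.49, adjusted p = 0.194, edgeR), all with pools apart. In CCL218, MXI1 rose (0.77, adjusted p = 0.0109) and MXD4 fell (-0.81, adjusted p = 0.0136, edgeR), both of which compete with MYC for MAX. MXD4 in OVCAR3 was at -0.83 (adjusted p = 0.0515, edgeR), past the threshold by DESeq2 but not by edgeR.

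Cell cycle genes were measured beside these changes. The 18 proliferation genes summed to 1940 to 2260 CPM in control OVCAR3 and 3200 to 4350 CPM in HCQ-evolved OVCAR3, and to 2090 to 2780 and 2800 to 3100 CPM in CCL218. Of these 18, 4 rose in OVCAR3 (AURKA, CCNB1, CDK1 and RRM2) and 1 in CCL218 (CDK1) by edgeR, against 0.647% and 3.82% of all genes tested that passed higher, and DESeq2 called 11 and 3 higher. All 18 fold changes were above 0 in OVCAR3 (median 0.92), and 13 of 18 in CCL218 (median 0.19), where the highest control sum lay close to the lowest HCQ-evolved one. Over all genes tested, 6299 of 12204 fold changes were above 0 in OVCAR3 and 5916 of 12241 in CCL218. The intestinal epithelial markers summed to 239 to 702 CPM in HCQ-evolved OVCAR3, below the controls, and to 1260 to 1310 CPM in HCQ-evolved CCL218, and the lowest sum and the highest proliferation sum were both in the HCQ-evolved OVCAR3 R pool. The part of either list in the levels of NOTUM, ASCL2, LGR5 and AXIN2 was not tested. In bulk RNA, fewer cells that express a gene and less of its RNA per cell cannot be told apart.

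ASCL2 had the widest spread of group means among the tested members, 4.80 on the log2 scale. The 3 tested genes whose levels followed it most closely over the 12 libraries were PGC, NNMT and TCEAL4, with root-mean-square differences of 0.47, 0.52 and 0.67 after centring. TCEAL4 fell in both lines, by 2 in OVCAR3 (adjusted p = 0.0218) and by 2.33 in CCL218 (adjusted p = 0.0323, edgeR). NNMT, which encodes nicotinamide N-methyltransferase, fell by 2.91 in CCL218 (adjusted p = 0.00495, edgeR) and was at -0.58 in OVCAR3 (adjusted p = 0.318). These 3 were chosen for their likeness to ASCL2, so their levels are a description.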

How the data were processed

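RNA-seq of 12 libraries was analysed, 3 pools for each of 4 groups given by the sample labels. The authors aligned reads to hg38 with STAR, removed duplicates with RmDup and counted reads per gene with featureCounts, and these raw counts were taken as deposited. Of the 29816 entries of 1 to 4 counts, 78.9% were even numbers, but whether both mates of a fragment were counted, and with which strand setting, is not given in the sources used here.

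TMM scaled the counts. A gene was tested if 3 or more libraries reached 1 CPM. Each line was fitted alone in edgeR 4.0.16 (R 4.3.3), using its quasi-likelihood model with robust dispersions, and p-values were adjusted by Benjamini-Hochberg over all genes tested (threshold 0.05). The difference between lines and the comparison of controls were contrasts in a fit of all 12 libraries. Alternatives were DESeq2 1.42.0, limma voom 3.58.1, RLE scaling, no filter, other libraries in the fit, plate position as a block, an offset for length and GC content (GENCODE 44, spline with 5 degrees of freedom) and each pool left out. The code was also run on simulated counts. These were drawn without the length and GC trends of the real libraries, so that run does not show how the tests behave under such trends.

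The 10 genes and all gene lists were chosen with earlier results of these data known. Named by rule besides them were, for each list, the gene with the smallest p in each line and every gene past the edgeR threshold in either. The 3 genes closest to ASCL2 were named by rule too. Other listed genes that are named, such as PROM1, OLFM4, LGALS4 and those called by DESeq2 alone, were chosen after their values were seen. Control and HCQ-evolved pools shared the letters L, M and R, which were taken as plate positions. After group means were removed, pools of the same position in CCL218 correlated across genes at 0.506 for L, 0.233 for M and 0.195 for R. Because each exceeded 0.1, position was taken as a possible pairing in that line, and the fit with plate position as a block is given beside the main one. The main fit, from which the calls are reported, was unpaired in both lines. Pools of different positions could pass this rule too. Control M stood at 0.433 with HCQ-evolved R, and control R at 0.114 with HCQ-evolved M. The rule therefore does not establish the pairing of M and R. Promoter windows came from RefSeq (GRCh38.p14), and start sites of AXIN2, LGR5, ASCL2, NKD1, ZNRF3, NOTUM and MYC were not analysed here.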

Additional observations from a re-analysis of the deposited data

Results flagged for a closer look

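Among the listed genes outside the 10 described first, 7 had a change that differed between the labels by the test of the difference itself. That test was edgeR's, of the CCL218 change minus the OVCAR3 change on the log2 scale. The 7 were 3 of 18 tested other WNT targets, 3 of 10 intestinal differentiation genes and 1 of 9 intestinal epithelial markers. No gene of the other lists passed, and 0.872% of all genes tested did. These lists were chosen with earlier results of these data known. CDKN1A differed by 2.56 (adjusted p = 0.000539), being lower in HCQ-evolved than in control OVCAR3 and higher in HCQ-evolved than in control CCL218. KLF4 differed by 2.50 (adjusted p = 0.00474) and EPHB2 by 2.57 (adjusted p = 0.0197, edgeR), with the same opposite directions of pools. CDH17, an intestinal cadherin, differed by 3.71 (adjusted p = 0.00555), at 44.9 to 57.4 CPM in HCQ-evolved CCL218 pools and at 1.71 to 4.87 CPM in all others. HES1 differed by 3.54 (adjusted p = 0.0258), EDN1 by 1.80 (adjusted p = 0.00613) and CCND1 by 1.28 (adjusted p = 0.0178, edgeR). Each was lower in HCQ-evolved OVCAR3 pools. In CCL218 the pools of HES1 and CCND1 overlapped. EDN1 was lower in every HCQ-evolved CCL218 pool too (-0.44, adjusted p = 0.158, edgeR), so its fall differed in size.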

How the results depend on the processing

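NOTUM and ASCL2 stayed lower in HCQ-evolved cells of both lines, LGR5 lower and AXIN2 higher, in all 13 alternative settings run for each line. For LGR5 in OVCAR3, however, the values ran from -0.69 to -0.02, so close to 0 at one end, and passed in none of these settings. The number of the 10 genes that passed moved, however, with single pools. It ranged from 0 to 2 in OVCAR3 when 1 pool was left out (2 with all), reaching 0 without control L, control R or HCQ-evolved M. In CCL218 it ranged from 0 to 6 (3 with all), reaching 6 without control L and 0 without HCQ-evolved M or R. Within a line, fits without a pool had 5 libraries, 1 fewer than the 6 with all. DESeq2 and the length and GC offset each called 5 in CCL218. In OVCAR3, where pools of the same position correlated at 0.401, -0.665 and -0.478 and the numbers were not taken as pairs, the replicate block called 1 (NOTUM, -2.49, adjusted p = 0.0256, edgeR). In CCL218 the block added AXIN2 and changed no other call. Between controls, 1 gene passed, 0 in a fit of the control libraries alone, 2 with the replicate block (NOTUM, -0.75, in addition), and 0 to 1 with a pool left out (0 without control M or R of CCL218). None of the 10 genes passed the difference between lines in any of these settings. Without a filter, 3 genes passed in OVCAR3, NKD1 in addition.

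Signs turned only for changes that had not passed, and the cause was not tested. With 1 pool left out, changes in OVCAR3 ran from -0.07 to 0.31 for RNF43, -0.29 to 0.45 for ZNRF3 and -0.82 to 0.10 for TCF7. The difference between lines ran from -0.67 to 0.16 for AXIN2, -0.20 to 0.51 for ZNRF3, -0.57 to 0.33 for TCF7 and -0.01 to 0.63 for MYC, and for ZNRF3 was -0.01 with no filter, -0.05 with the length and GC offset and -0.05 without both control L pools, a setting chosen after seeing the data. Between controls it ran from -0.06 to 0.23 for RNF43, -0.17 to 0.14 for ZNRF3, -0.29 to 0.16 for TCF7 and -0.15 to 0.49 for MYC. There the length and GC offset gave -0.20 for RNF43 and -0.14 for MYC, and leaving out both control L pools gave 0.01 for ZNRF3.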

Other observations

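Cell identity genes changed in HCQ-evolved CCL218 cells beside the fall of ASCL2 and LGR5. Of the 11 intestinal epithelial markers, 8 were tested and 3 rose in CCL218 by edgeR, against 3.82% of all genes tested that passed higher. These were CDH17 (log2 fold change 3.77, adjusted p = 0.0012), GPA33, a surface antigen of intestinal epithelium (2.86, adjusted p = 0.000608), and CDX2, a transcription factor of intestinal identity (1.54, adjusted p = 0.00275, edgeR). CDX2 was at 21.2 to 26.5 CPM in control CCL218 pools and 62.2 to 71.3 CPM in HCQ-evolved ones. Other members of the list were lower in every HCQ-evolved CCL218 pool than in every control pool, MUC2 at -1.56 (2.94-fold lower, adjusted p = 0.0531, edgeR, called lower by DESeq2) and LGALS4 at -0.42 (adjusted p = 0.245, edgeR). DESeq2 called 4 higher, with FABP1 in addition. In OVCAR3, MUC2 passed lower (-2.18, adjusted p = 0.0276, edgeR), and CDX2 was at 8.67 to 13.7 CPM in control pools and 0.803, 8.26 and 9.72 CPM in HCQ-evolved pools from lowest to highest.

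Of the 12 Müllerian markers, 5 were tested and none passed under either label by edgeR, with 1 at an unadjusted p under 0.05 in each line and FOLR1 lower in OVCAR3 by DESeq2. FOLR1 was at -1.12 in OVCAR3 (adjusted p = 0.0799) and MSLN at 0.75 in CCL218 (adjusted p = 0.181, edgeR). WT1 was too low to be tested within either line, but its HCQ-evolved pools were all higher in both. It was at 0.103 to 0.407 CPM in control and 0.653 to 2.35 CPM in HCQ-evolved OVCAR3 pools. In CCL218 these ranges were 0.197 to 0.392 and 0.903 to 1.39 CPM. Among the proliferation genes, CDK1, the mitotic kinase, rose by 1.29 in OVCAR3 (adjusted p = 0.0318) and by 0.63 in CCL218 (adjusted p = 0.0251, edgeR), at 161 to 217 and 110 to 123 CPM in HCQ-evolved pools against 65.0 to 91.7 and 70.9 to 78.5 CPM in controls.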
